A study of Homo sapiens with 6 samples.

Results

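The MYC, MAX and MXD network is a family of transcription factors that share the partner proteins MAX and MLX, and 10 of its genes were followed here. They were chosen by name: the activators MYC, MYCN and MYCL, the shared partners MAX and MLX, and the antagonists MXD1, MXD3, MXD4, MXI1 and MNT. All 10 were among the 18417 genes measured, and each had 1 probe set that names no other gene. RNA came from A204, an established human rhabdoid tumour line, a cancer type whose usual lesion is loss of SMARCB1, a subunit of the SWI/SNF chromatin remodeller. There were 3 arrays from cells kept for 12 h with SAHA, the histone deacetylase (HDAC) inhibitor also called vorinostat, and 3 arrays from control cells, which received DMSO by the treatment protocol although another label gives their treatment as none. The labels leave the unit of the SAHA dose incomplete, so no concentration is given. All results come from 1 cell line at 1 time of SAHA treatment, and a treatment time is listed for the SAHA arrays only. The labels do not tell whether the replicates were grown separately. The p-values therefore reflect array-to-array spread only, part or all of which may be technical.

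MYC proteins bind DNA as dimers with MAX, prefer the E-box CACGTG and raise transcription of genes for growth, ribosome production and metabolism. The MXD proteins, MXI1 and MNT compete for MAX, bind the same E-box and bring the SIN3 corepressors, which carry HDAC1 and HDAC2, the kind of enzyme that SAHA inhibits. MLX forms a second centre of the network: it pairs with the glucose-sensing factors MLXIP (MondoA) and MLXIPL (ChREBP) and with some of the antagonists.

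Signal is given as the log2 of the RMA value of a probe set, a background-corrected, quantile-normalized array signal, and changes are SAHA minus control. Medians per array ran from 142 to 149 on the linear scale, and arrays correlated at 0.9965 to 0.998 within a group and at 0.9728 to 0.9738 between groups (Pearson, across 33252 probe sets, which are not independent replicates). SMARCB1 was at 7.74 ± 0.04 in control and 7.22 ± 0.05 in SAHA (SD, n = 3), and the mesenchymal marker VIM at 12.81 ± 0.03 and 12.63 ± 0.02. No background call was made, so neither SMARCB1 nor any marker can be called absent. The summed linear signal of 6 blood cell markers ran from 313 to 326 in control and from 288 to 300 in SAHA (1 of the 6 was lower by the test and none higher), and that of 6 epithelial markers from 26311 to 26798 and from 25626 to 26206, with 3 of those 6 higher and 2 lower. That of 6 mesenchymal markers ran from 20156 to 20620 in control and from 17224 to 17257 in SAHA, with 2 higher and 3 lower. The mesenchymal rises were those of FN1, from 7.48 ± 0.34 to 10.73 ± 0.02 (3.25), and THY1 (0.72, and 0.19 with a limma adjusted p = 0.0643 under the centring on the middle housekeeping gene), and the largest epithelial rises those of CLDN4 (1.25) and KRT19 (0.80), all 4 named after their values were seen. The mesenchymal falls were those of CD44 (-0.58), SPARC (-0.38) and VIM (-0.18). The epithelial falls were those of KRT18 (-0.21, by the brighter of its 2 probe sets) and CDH1 (-0.17). CD44, SPARC, KRT18 and CDH1 were also named after their values were seen. The part of these markers in the results was not tested.

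The network changed in both directions. Among activators MYCN fell, MYC rose slightly and MYCL did not pass the test. Both shared partners rose. Among antagonists MXD1, MXD4 and MXI1 rose while MXD3 and MNT fell. At an adjusted p under 0.05 (limma, Benjamini-Hochberg over all genes), 9 of 10 members were called, against 60.0% of all genes tested. Of the members 6 were higher, against 31.1% of all genes, and 3 were lower, against 28.9%. Changes of at least 2-fold were found for 2 members, MYCN and MXD1, against 11.3% of all genes. The values of the groups did not overlap for 9 members, against 65.4% of all genes. With so many genes moving under SAHA, a call alone sets a member little apart. The median change over all genes was -0.0027, and the median size of change, sign ignored, was 0.24.

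**Figure D1:**
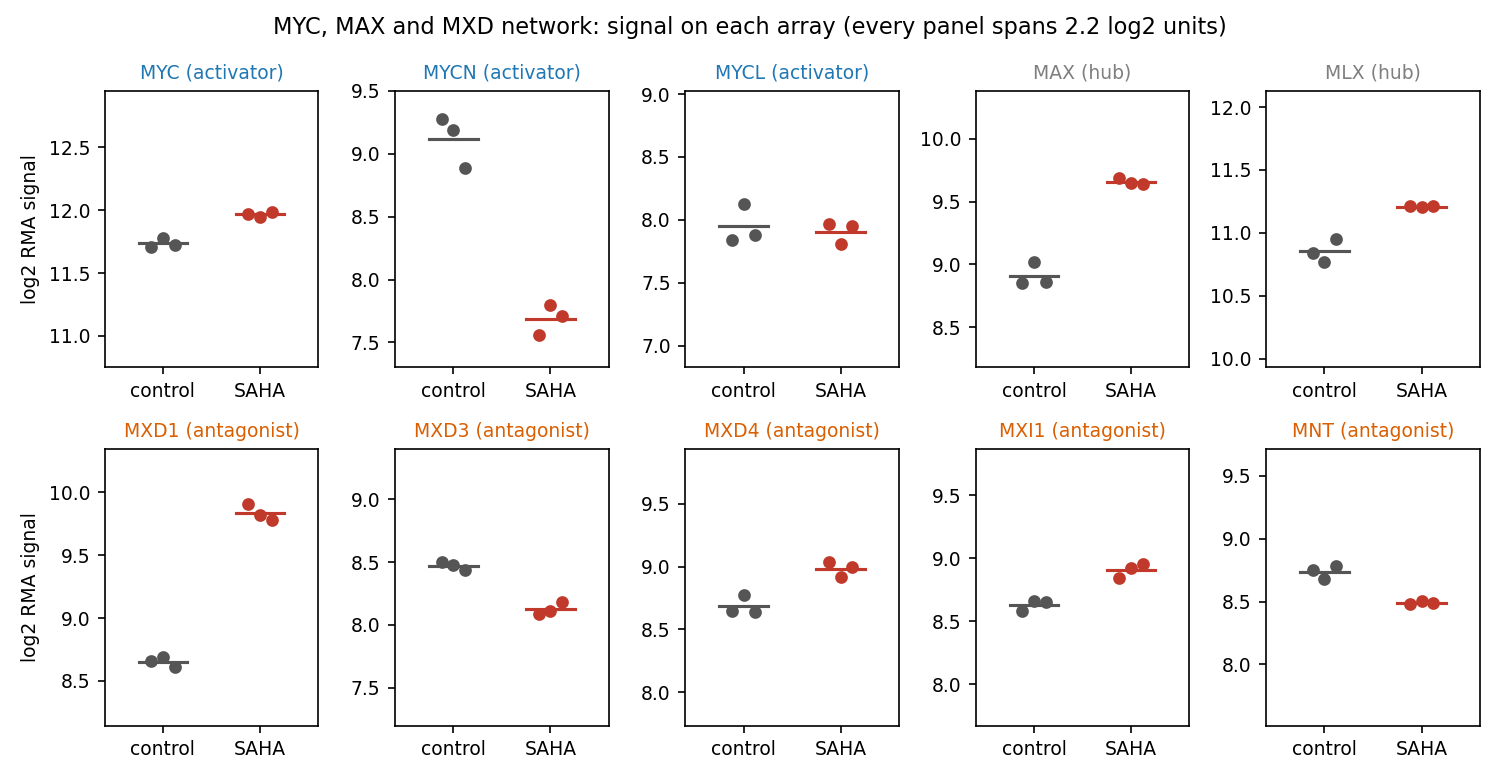
Signal of each network member on every array (log2 RMA signal, vertical axis, own range of 2.2 log2 units in each panel so that distances but not heights can be compared between panels). Grey points are the 3 control arrays, red points the 3 SAHA arrays and bars their means; MYCL is the member whose groups overlap, and MYCN and MXD1 show the widest separation.

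One scaling changes signs. Centring each array on the middle level of 9 housekeeping genes moved the median change of all genes to -0.54, because that middle gene was TBP on the control arrays and B2M on the SAHA arrays. B2M was itself higher in SAHA (0.70, limma adjusted p = 6.8e-06) and rose above TBP, which changed by 0.06 and did not pass (limma adjusted p = 0.212). Under this centring MYC (-0.30), MLX (-0.18), MXD4 (-0.24) and MXI1 (-0.25) turned sign. Differences between genes are the same under that centring, and centring on the median deviation of the same 9 genes, added after seeing the data, turned none of them. Directions below are those under the deposited scaling.

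Promoter sequences of the members whose results stand out are shown first, from RefSeq on build GRCh38.p14, each running from 250 bases before to 50 bases after an annotated start site. MYCN and MXD1 are the members that moved most, and MXD4, MNT and MLX are those with an E-box among the promoters searched. The search covered promoters of 9 of 10 members and none of MYC, so the member counts below do not include MYC. These members gave 12 promoters in all because MAX and MXI1 have several starts. Capitals mark the E-box (CACGTG, the same on both strands) and the GC box, a binding motif of SP1-type factors (GGGCGG, or CCGCCC for the other strand). No E-box and GC box overlap in these sequences.
MYCN, chr2:15940300-15940599, + strand: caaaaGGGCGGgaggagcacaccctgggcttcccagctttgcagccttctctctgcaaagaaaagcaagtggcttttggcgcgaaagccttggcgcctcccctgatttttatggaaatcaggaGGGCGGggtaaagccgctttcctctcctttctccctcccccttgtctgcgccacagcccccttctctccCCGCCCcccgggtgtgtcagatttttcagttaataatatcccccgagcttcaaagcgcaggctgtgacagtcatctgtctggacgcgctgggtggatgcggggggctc
MXD1, chr2:69914859-69915158, + strand: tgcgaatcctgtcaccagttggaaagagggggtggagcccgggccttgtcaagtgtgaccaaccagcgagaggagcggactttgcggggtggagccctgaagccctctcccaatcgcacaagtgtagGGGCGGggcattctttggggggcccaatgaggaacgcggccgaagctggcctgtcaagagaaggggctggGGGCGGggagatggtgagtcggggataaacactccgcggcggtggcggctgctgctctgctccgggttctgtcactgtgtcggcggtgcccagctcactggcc
MXD4, chr4:2262060-2262359, - strand: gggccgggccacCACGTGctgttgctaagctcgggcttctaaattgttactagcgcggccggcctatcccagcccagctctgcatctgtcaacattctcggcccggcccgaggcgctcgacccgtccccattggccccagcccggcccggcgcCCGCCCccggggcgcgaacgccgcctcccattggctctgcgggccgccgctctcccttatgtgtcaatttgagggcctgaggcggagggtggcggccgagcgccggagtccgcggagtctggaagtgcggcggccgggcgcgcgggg
MNT, chr17:2401011-2401310, - strand: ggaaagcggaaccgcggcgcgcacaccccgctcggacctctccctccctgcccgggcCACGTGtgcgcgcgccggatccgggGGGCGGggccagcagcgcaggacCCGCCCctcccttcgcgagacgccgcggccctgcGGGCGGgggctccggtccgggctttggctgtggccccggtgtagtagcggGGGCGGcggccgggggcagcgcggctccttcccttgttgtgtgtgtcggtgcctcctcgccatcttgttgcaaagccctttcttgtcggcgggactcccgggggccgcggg
MLX, chr17:42566850-42567149, + strand: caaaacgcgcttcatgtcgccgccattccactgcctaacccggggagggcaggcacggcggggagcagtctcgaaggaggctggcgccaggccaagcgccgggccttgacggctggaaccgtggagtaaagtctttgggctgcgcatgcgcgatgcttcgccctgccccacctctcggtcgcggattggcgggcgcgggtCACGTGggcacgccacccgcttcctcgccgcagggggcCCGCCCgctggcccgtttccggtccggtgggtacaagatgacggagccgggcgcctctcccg
The E-box began at position -238 in MXD4, -193 in MNT and -50 in MLX, counted from the start site. It was found in 3 of the 12 member promoters searched and in 7.26% of the 35116 promoters used as background. Of the 3 genes that hold it, MXD4 and MLX rose and MNT fell. A GC box was found in 11 of the 12 promoters, with MYCN holding 3, MXD1 2 and MNT 4, against 45.0% of all promoters with at least 1. The GC content was 58.7% for MYCN, 65.0% for MXD1 and 76.0% for MNT. Promoters rich in G and C hold such boxes more often, and the part of base composition was not tested. Both the gene that fell most and the gene that rose most hold GC boxes and no E-box in this window. That does not set them apart, since all 9 members with a promoter here hold a GC box and only 3 an E-box. A match is a run of letters and was not tested as a binding site.

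MYCN, the MYC gene best known from neuroblastoma and the developing nervous system, had the largest change of the network. Its signal was 9.28, 9.19 and 8.89 on the 3 control arrays and 7.56, 7.79 and 7.71 on the 3 SAHA arrays. Every SAHA value lay at least 1.10 log2 units below every control value. MYCN fell by 1.43 log2 units (SE 0.11, 95% interval -1.68 to -1.19, limma adjusted p = 7.22e-06), which is 2.70-fold lower. Only 2.69% of all genes tested fell further. MYCN was also the member with the widest spread among controls (SD 0.20, n = 3). MYCNOS, the antisense gene at the MYCN locus, named after its value was seen, was at 6.08 ± 0.19 in control and 5.98 ± 0.10 in SAHA, and its change of -0.10 did not pass the test (95% interval -0.33 to 0.12, limma adjusted p = 0.393). Under the centring on the middle housekeeping gene MYCNOS passed as lower (-0.64, limma adjusted p = 4.8e-06).

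MYC itself, the founding member and the broadly expressed form in dividing cells, moved the other way by a small amount. The control arrays read 11.71, 11.78 and 11.72 and the SAHA arrays 11.97, 11.95 and 11.99. The groups did not overlap, but the gap between them was 0.17. MYC rose by 0.23 (SE 0.04, 95% interval 0.13 to 0.33, limma adjusted p = 0.00168), or 1.17-fold, and 50.7% of all genes changed by more in either direction. MYC is the activator whose sign turned under the centring on the middle housekeeping gene described above.

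MYCL, the form known from small cell lung cancer, read 7.84, 8.13 and 7.88 in control and 7.96, 7.80 and 7.95 in SAHA. The groups overlapped. Its change was -0.04 (SE 0.08, 95% interval -0.24 to 0.15, limma adjusted p = 0.687), and these arrays do not separate a change within that interval from none. Its sign turned without control replicate 2 (0.05) and without SAHA replicate 2 (0.0079), and it passed as lower (-0.58) under the centring on the middle housekeeping gene.

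MAX, the obligate partner through which MYC and its antagonists bind DNA, was 8.85, 9.02 and 8.86 in control and 9.68, 9.65 and 9.64 in SAHA. The SAHA arrays agreed closely (SD 0.02, n = 3) and all lay above the highest control. MAX rose by 0.75 (SE 0.06, 95% interval 0.62 to 0.88, limma adjusted p = 7.55e-06), or 1.68-fold, and 9.34% of all genes rose further. MLX, the second shared partner, was 10.84, 10.77 and 10.95 in control and 11.21, 11.20 and 11.21 in SAHA. It rose by 0.35 (SE 0.05, 95% interval 0.23 to 0.48, limma adjusted p = 0.000604), and the lowest SAHA value stood 0.25 above the highest control. The interval of MAX and that of MLX do not overlap, with MAX the higher, but a difference between them was not tested.

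MXD1 (MAD1), an antagonist known to rise when cells stop dividing and differentiate, had the largest rise of the network. Control arrays read 8.66, 8.69 and 8.61 and SAHA arrays 9.90, 9.82 and 9.78. The gap between the groups, 1.10, was as wide as that of MYCN in the other direction. MXD1 rose by 1.18 (SE 0.05, 95% interval 1.07 to 1.30, limma adjusted p = 3.06e-07), or 2.27-fold, and 4.14% of all genes rose further.

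MXD4 and MXI1, antagonists also associated with resting or differentiating cells, rose by less. MXD4 was 8.64, 8.78 and 8.64 in control and 9.03, 8.92 and 8.99 in SAHA, a change of 0.29 (95% interval 0.17 to 0.42, limma adjusted p = 0.00192). MXI1 was 8.58, 8.66 and 8.65 in control and 8.84, 8.92 and 8.96 in SAHA, a change of 0.28 (95% interval 0.16 to 0.39, limma adjusted p = 0.0013). Neither gene's groups overlapped, and the smallest gaps were 0.14 for MXD4 and 0.18 for MXI1. MXI1 has several annotated starts, and its single probe set gives no value per start.

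MXD3, an antagonist that is unusual in being expressed in dividing cells during S phase, fell. It was 8.50, 8.48 and 8.44 in control and 8.09, 8.11 and 8.19 in SAHA, a change of -0.34 (95% interval -0.45 to -0.24, limma adjusted p = 0.000262). MNT, the broadly expressed antagonist present in dividing and resting cells alike, was 8.75, 8.68 and 8.78 in control and 8.48, 8.50 and 8.49 in SAHA, a change of -0.24 (95% interval -0.35 to -0.14, limma adjusted p = 0.00157). Both stayed lower under every alternative run, the one that changes signs included. The antagonists thus divided into 3 that rose and 2 that fell, and the interval of MXD1 lay above those of the other 4.

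**Figure D2:**
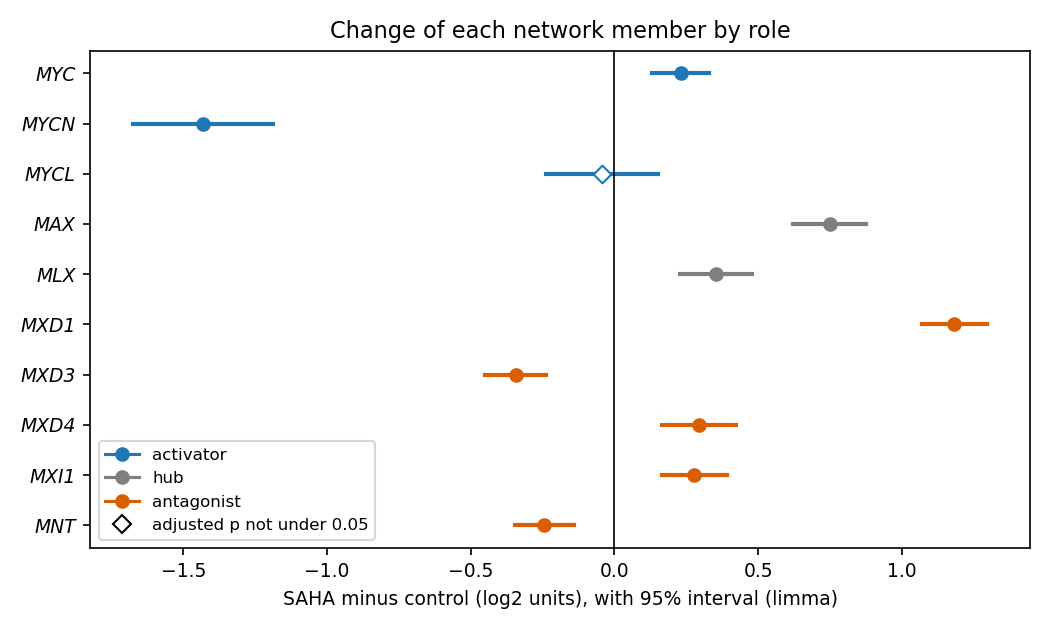
Change of each member (SAHA minus control, log2 units, horizontal axis) with its 95% interval from limma, coloured by role; the open diamond is MYCL, which did not pass the test. MYCN (-1.43) and MXD1 (1.18) stand farthest from 0 and the antagonists lie on both sides of it; under the centring on the middle housekeeping gene MYC, MLX, MXD4 and MXI1 lie below 0.

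Activators were set against antagonists on each array as the mean, over the genes of a role, of the log2 signal minus that gene's control mean. The activators stood at -0.44, -0.42 and -0.39 on the 3 SAHA arrays and the antagonists at 0.23, 0.22 and 0.25. On the control arrays, which average 0 by construction, antagonists minus activators was -0.02, -0.08 and 0.09. On the SAHA arrays it was 0.67, 0.64 and 0.63, with a mean of 0.65 ± 0.02 (SD, n = 3). No p is given, since the genes were chosen by name with results known.

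That difference rested on 1 gene in each role. Without MYCN the mean of MYC and MYCL in SAHA was 0.09 and the difference of the roles 0.14. Without MXD1 the mean of the other 4 antagonists was -0.0040 and the difference 0.41. Without both genes the difference was -0.10, with values of -0.14, -0.05 and -0.10 on the SAHA arrays. The median change was -0.04 for the activators and 0.28 for the antagonists. A mean over a role gives each gene the same weight, and array signals do not tell how much RNA each gene contributes.

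**Figure D3:**
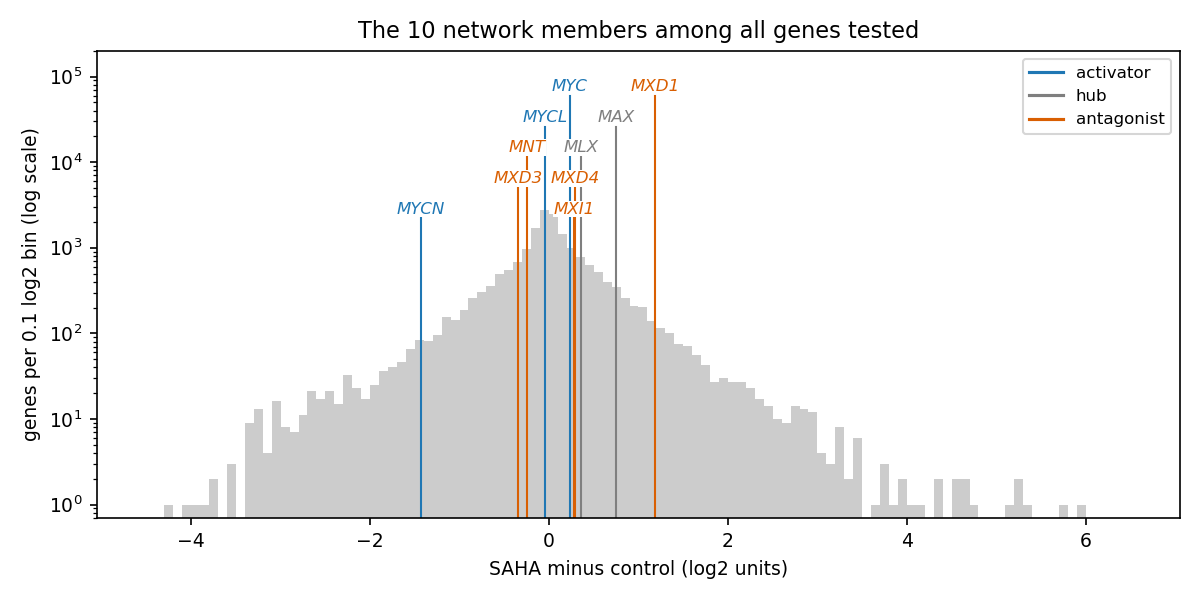
Distribution of the change (SAHA minus control, log2 units, horizontal axis, bins of 0.1) over all 18417 genes, with the number of genes per bin on a log axis and the 10 members marked by lines coloured by role. MYCN and MXD1 lie in the tails, with 2.69% of genes falling further and 4.14% rising further, whereas MYC, MXD4, MXI1, MXD3, MNT and MLX lie where many genes changed as much; the heights of the lines carry no value.

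Of 10 other network partners 9 were measured, 4 higher (44.4%, against 31.1% of all genes), 2 lower (22.2%, against 28.9%) and 3 not called, with a median change of 0.01. Under the centring on the middle housekeeping gene, where 1836 of all 18417 genes were higher and 14677 lower, 3 of the partners were higher and 6 lower. BCL6, a repressor that works with corepressors of the same kind, rose from 7.94 ± 0.12 to 9.36 ± 0.01 (SD, n = 3), a change of 1.41. MLXIPL, a glucose-sensing partner of MLX, rose by 0.95, from 7.95 ± 0.11 to 8.90 ± 0.07. MLXIP, the other glucose-sensing partner, was at 9.50 ± 0.10 and 9.47 ± 0.08, a change of -0.03 that did not pass the test (95% interval -0.18 to 0.13, limma adjusted p = 0.757). It passed as lower (-0.56) under the centring on the middle housekeeping gene. MYCBP2, a large ubiquitin ligase first found as a MYC-binding protein, rose by 0.78. ZBTB17 (MIZ1), through which MYC represses some genes, changed by 0.01 and did not pass (95% interval -0.11 to 0.14, limma adjusted p = 0.849). It too passed as lower (-0.52) under that centring.

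MGA, a MAX partner that anchors a Polycomb-type repressor complex, was at 9.43 ± 0.02 in control and 9.42 ± 0.03 in SAHA (SD, n = 3), a change of -0.0098 (95% interval -0.10 to 0.08, limma adjusted p = 0.856). MGA passed as lower (-0.54) under the centring on the middle housekeeping gene. The other genes of that complex on the list moved apart. PCGF6, read by the brighter of its 2 probe sets, fell from 11.11 ± 0.08 to 9.89 ± 0.02, a change of -1.22. L3MBTL2 changed by -0.79. E2F6 rose by 0.24, though it was lower (-0.29) under the centring on the middle housekeeping gene.

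The corepressors that MXD proteins bring to DNA were represented by 18 measured genes of the SIN3 and NCoR complexes. Of these 9 were higher (against 31.1% of all genes), 6 lower (33.3%, against 28.9%) and 3 not called, with a median of 0.18. None changed by 2-fold, against 11.3% of all genes. Under the centring on the middle housekeeping gene 3 of the 18 were higher and 11 lower, against 1836 and 14677 of all 18417 genes. The largest rises were those of GPS2 (0.94) and HDAC3 (0.90), which belong to the NCoR complex, and of ING1 (0.84), a histone-reading subunit of SIN3 complexes. The largest falls were those of RBBP4 (-0.76), a histone-binding protein of several complexes, TBL1XR1 (-0.65), an NCoR exchange factor, and SINHCAF (-0.32), whose place rests on the brighter of its 2 probe sets. As their mean it was at -0.17, a smaller fall than that of HDAC2 (-0.27, named after its value was seen). The scaffolds that bind the MXD proteins directly, named after their values were seen, differed from each other. SIN3B rose from 9.27 ± 0.11 to 9.95 ± 0.01, a change of 0.68, while SIN3A was at 10.80 ± 0.01 and 10.79 ± 0.03 (SD, n = 3), a change of -0.0049 that did not pass (95% interval -0.10 to 0.09, limma adjusted p = 0.93). Under the centring on the middle housekeeping gene SIN3B was at 0.15 and did not pass (limma adjusted p = 0.087), and SIN3A was lower (-0.54).

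Among 18 measured coactivators and elongation factors of MYC, 6 were higher (33.3%, against 31.1% of all genes) and 10 lower (55.6%, against 28.9%). The median was -0.21. The 10 include SMARCB1 (-0.51), the gene whose loss is usual in this cancer type and for which no background call was made. Under the centring on the middle housekeeping gene 0 of the 18 were higher and 16 lower, against 1836 and 14677 of all 18417 genes. The acetyltransferase KAT2A (GCN5) fell by the most, from 10.85 ± 0.10 to 9.68 ± 0.03, a change of -1.16. HCFC1, a chromatin-bound MYC cofactor, changed by -0.74 and the acetyltransferase CREBBP by -0.74. The rises included RUVBL2 (0.64), an ATPase of the TIP60 complex, KAT2B (0.54), the paralog of KAT2A, and EP300 (0.33), the paralog of CREBBP, which was lower (-0.21) under the centring on the middle housekeeping gene. Under that centring RUVBL2 (0.10) and KAT2B (0.0031) did not pass the test.

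Genes whose products act on MYC protein turnover or phosphorylate it numbered 22 measured, 8 higher (36.4%, against 31.1% of all genes) and 11 lower (against 28.9%), with a median of -0.14. Under the centring on the middle housekeeping gene 1 of the 22 was higher and 18 lower, against 1836 and 14677 of all 18417 genes. The 3 largest falls were also those of genes needed for mitosis. PLK1 changed by -3.16, AURKA, the mitotic kinase known to protect MYCN protein from degradation, by -2.84, and CIP2A, a PP2A inhibitor that protects MYC protein, by -3.00. The control mean of AURKA was 11.79 ± 0.01 and its SAHA mean 8.95 ± 0.04 (SD, n = 3). The largest rises were those of the ubiquitin ligase genes FBXO32 (2.25) and STUB1 (0.58) and of GSK3B (0.51), the kinase that primes MYC for degradation, which was at -0.03 under the centring on the middle housekeeping gene. STUB1 was at 0.05 under that centring, and neither STUB1 nor GSK3B passed the test there. RNA does not show how much MYC or MYCN protein was present.

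Genes known as induced by MYC were mostly lower. Of 41 measured, 30 were lower (73.2%, against 28.9% of all genes), 5 were higher (12.2%, against 31.1%) and 6 were not called, and the median was -0.32 against -0.0027 over all genes. Most changes were small. At least 2-fold lower were 4 of the 41, against 998 of all 18417 genes. CDC25A, a phosphatase that drives cell-cycle entry, fell from 9.02 ± 0.15 to 6.62 ± 0.26 (SD, n = 3), a change of -2.40. MRTO4, a ribosome assembly factor, changed by -1.29 and PUS7, a pseudouridine synthase, by -1.12. Against this direction ODC1, the first enzyme of polyamine synthesis and a classical MYC target, rose from 12.03 ± 0.10 to 12.79 ± 0.03, a change of 0.77, TFRC, the transferrin receptor, rose by 0.48 and RRP12, a ribosome export factor, by 0.30. The signs of TFRC (-0.05) and RRP12 (-0.24) turned under the centring on the middle housekeeping gene. Many genes of this list are also genes of dividing cells, and that share in the result was not tested.

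Of 19 measured genes known as repressed by MYC, 12 were higher (63.2%, against 31.1% of all genes) and 3 lower (15.8%, against 28.9%). The other 4 were not called, and the median was 0.42. At least 2-fold higher were 6 of the 19, against 1075 of all 18417 genes. Under the centring on the middle housekeeping gene 8 of the 19 were higher and 8 lower, against 1836 and 14677 of all 18417 genes. SERPINI1, neuroserpin, rose from 6.12 ± 0.05 to 9.46 ± 0.04 (SD, n = 3), a change of 3.33. THBS1, the angiogenesis inhibitor thrombospondin, rose by 2.15, and NDRG1, a gene of differentiation and stress that MYC and MYCN repress, by 1.84. The falls were those of CDKN1B, the cell-cycle inhibitor p27, from 10.86 ± 0.09 to 9.89 ± 0.05 (-0.96), VAMP4 (-0.52) and COL3A1 (-0.32). CDKN1A, the cell-cycle inhibitor p21 (1.30), and CLU, clusterin (1.66), named after their values were seen, are also textbook genes induced by HDAC inhibitors, and the share of such genes in the count was not tested.

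Targets of the MLX partners MLXIP and MLXIPL were divided. Of 14 measured, 6 were higher (42.9%, against 31.1% of all genes), 2 lower (14.3%, against 28.9%) and 6 not called, with a median of 0.05. Under the centring on the middle housekeeping gene 3 of the 14 were higher and 9 lower, against 1836 and 14677 of all 18417 genes. ARRDC4 and TXNIP, arrestin-family genes through which MLXIP and MLX limit glucose uptake, rose most: ARRDC4 from 9.01 ± 0.04 to 12.05 ± 0.04 (SD, n = 3), a change of 3.03, and TXNIP by 1.94. PFKFB3, a regulator of glycolysis, rose by 1.17. Whether MLXIP, MLXIPL or MLX had a part in these rises, or SAHA raised the genes by another route, was not tested. ELOVL6, a fatty acid elongase of the lipid-synthesis branch, fell by 1.04 log2 units, and SCD, a desaturase of the same branch, by 0.15 (limma adjusted p = 0.0376). The call of SCD ended without control replicate 1 (adjusted p = 0.111) or 3 (0.0892), without SAHA replicate 1 (0.125), 2 (0.0576) or 3 (0.0825), and in 3 other alternatives, which leaves 1 lower gene in this list there.

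**Figure D4:**
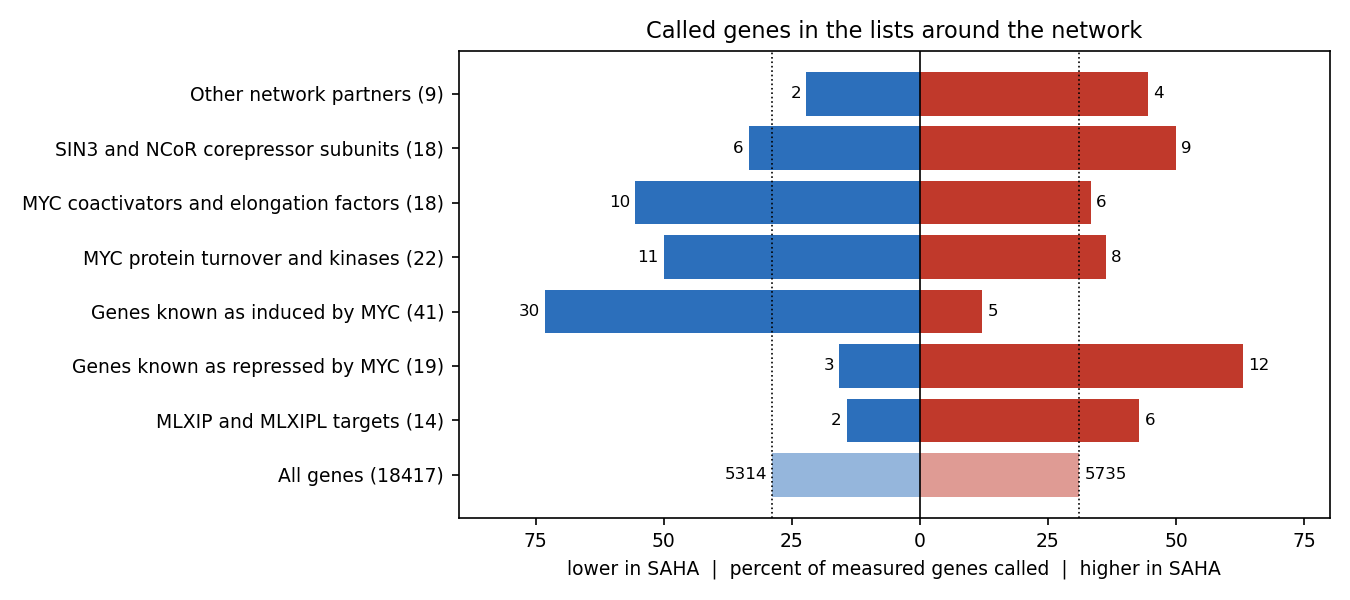
Percent of the measured genes of each list that were called lower (blue, left) or higher (red, right) in SAHA, with the number of genes at the bar ends, the number measured in brackets and all genes in pale colours with dotted lines. Genes known as induced by MYC reach farthest to the left (30 of 41) and genes known as repressed by MYC farthest to the right (12 of 19); under the centring on the middle housekeeping gene most lists shift to the left, as do all genes.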

How the data were processed

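The data are 6 Affymetrix whole-transcript expression arrays, 3 per group, and groups and replicate numbers were read from the sample titles. The authors deposited 1 RMA intensity per probe set and array, per the submitters' processing notes, on a linear scale from 6.56 to 20338, and its log2 was taken here. For the RMA software, the array annotation and its build, the version is not given in the sources used. RMA makes the arrays nearly alike in distribution, so a shift of all RNA per cell is invisible here, and changes of dim genes may be understated because no background call was made.

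Of 33252 probe sets, 19460 named 1 gene, 1754 several and 12038 none. Symbols were updated by Entrez identifier through RefSeq (GRCh38.p14), which matched 19429. Where 1 of the 18417 genes had several probe sets, the one brightest on average across the 6 arrays was used. SAHA was compared with control by limma 3.58.1 in R 4.3.3 (lmFit, eBayes, no covariates), two-sided, with Benjamini-Hochberg adjustment over all genes, a threshold of 0.05, and no gene left out for low signal. The fitting step was also run on simulated data with independent noise and few changed genes. Far more genes were called in the real data, so that run does not give the error rate of these calls. Values are means ± SD.

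The members and lists were chosen with earlier results of these data known. From lists of 10 or more measured genes, up to the 3 largest called rises and the 3 largest called falls are named, and from shorter lists any gene. List genes read by no probe set of a single gene were not analysed here. Alternatives covered scaling, filters, probe set choice, variance models, array weights, the replicate number and each array left out.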

Additional observations from a re-analysis of the deposited data

How the results depend on the processing

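Of 189 values of the 10 members under 19 alternatives, 182 kept direction and side of the threshold. The exceptions were those of MYCL without 1 array (-0.10 to 0.045 over the 6 such fits) and those under centring on the middle housekeeping gene. That centring gave 1836 genes higher and 14677 lower, 2 members higher and 8 lower, and reversed MYC (-0.30), MLX (-0.18), MXD4 (-0.24), MXI1 (-0.25), E2F6 (-0.29), EP300 (-0.21), GSK3B (-0.027), RRP12 (-0.24), TFRC (-0.049) and ZBTB17 (-0.52). Under it the other partners had 6 genes lower, the corepressors 3 higher and 11 lower, the coactivators 0 higher and 16 lower, the turnover genes 1 higher and 18 lower, the MYC-induced genes 1 higher, the MYC-repressed genes 8 higher and 8 lower, and the targets of MLXIP and MLXIPL 3 higher and 9 lower. The calls of SIN3B (0.15), KAT2B (0.0031), RUVBL2 (0.10), STUB1 (0.05) and THY1 (0.19) ended under it. MYCL (-0.58), MYCNOS (-0.64), MGA (-0.54), MLXIP (-0.56) and SIN3A (-0.54), not called under the deposited scaling, passed as lower under it. The centring switches from TBP to B2M because B2M was itself higher in SAHA (11.10 in control, 11.80 in SAHA) and TBP was not called (11.27 and 11.33). The mean antagonist change minus the mean activator change, 0.65, was 0.70 after a further quantile normalization, 0.67 after cyclic loess, 0.83 without genes under the median level (which leaves out MYCL), 0.61 to 0.70 with 1 array left out, 0.14 without MYCN, 0.41 without MXD1 and -0.098 without both, the last 3 added after seeing the data. Without genes under the median level 3660 genes were higher, of fewer tested. The lower targets of MLXIP and MLXIPL numbered 1 with median centring, with the ordinary test per gene and with the replicate block, and 1 to 2 with 1 array left out. Genes near 0 turned sign: MLXIP with array weights (0.0039), cyclic loess (0.011), quantile normalization (0.051) and 1 array left out (-0.075 to 0.022), MGA with cyclic loess (0.027), quantile normalization (0.068) and 1 array left out (-0.023 to 0.0030), ZBTB17 with 1 array left out (-0.025 to 0.053), and SIN3A with cyclic loess (0.012), quantile normalization (0.037) and 1 array left out (-0.018 to 0.010). Same-numbered arrays of the groups did not deviate together (correlations of -0.041, -0.17 and -0.0077, and 0 of 6 arrays correlated best with its own number), so the numbers were not taken as pairs. With the replicate number as a block 5520 genes were higher and 5081 lower, 6 members higher and 3 lower, and no member's call changed. The 3 arrays per group limit the precision of each change.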
